A study of Mus musculus with 2 samples.

Results

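MicroRNA genes of the let-7 family were examined in the gastrocnemius, the large calf muscle, which is built mostly of fast fibres. The set comprised 10 of the 2202 miRNA genes counted, namely every gene with a Mirlet7 symbol and Mir98, except Mirlet7c-1 and Mirlet7e. These 10 genes with Mirlet7c-1 and Mirlet7e are called the let-7 genes below. The 10 genes were chosen by symbol alone, through the GENCODE M21 names of the Ensembl identifiers. All 10 were found and passed the minimum of 10 counts summed over both libraries. The series holds 1 group of 2 libraries from muscle tissue of male B6CASTF1/J mice, an F1 cross of a laboratory strain with the wild-derived CAST strain, at 25 days of age. No treatment or altered allele is named in the labels. The labels call the libraries biological replicates of differently numbered males but give a single donor identifier for both. SDs, and any p-value that takes in the spread between the libraries, may therefore measure technical spread only. The exact binomial p-values below cover counting error alone.

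The choice was meant to leave out let-7 genes that lie beside miR-99/100 and miR-125 genes. The annotation goes against this for Mirlet7a-2. It lies 5212 bases past Mir100 and 45115 bases before Mir125b-1 on chromosome 9, all on the plus strand. Of the annotated transcripts of 3110039I08Rik, 9 span all 3 of these miRNA genes, as does 1 of Gm49317. The set is therefore described below by its genes and not as one free of such neighbours.

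Let-7 miRNAs are small RNAs of the cytoplasm that guide Argonaute proteins to messenger RNAs through bases 2 to 8, the seed, and lower the output of those messages. They are scarce in early embryonic and stem cells, where the protein LIN28 blocks the processing of their precursors, and become abundant as tissues mature. Adult skeletal muscle is among the tissues rich in them, and they are known there for damping insulin and growth signalling.

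The mature 5p sequences show what the genes share and where they part, and they fix which genes a read can be told from. RefSeq sequences on GRCm38.p6 were found for all 10 genes, and all 10 hairpins had the same coordinates in GENCODE. The 5p arms are given below 5′ to 3′ with the seed in capitals. For Mirlet7a-2 the table names only the 3p arm, and its hairpin holds the let-7a-5p sequence.
let-7a-5p: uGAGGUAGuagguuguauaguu
let-7b-5p: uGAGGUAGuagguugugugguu
let-7c-5p: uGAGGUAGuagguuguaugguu
let-7d-5p: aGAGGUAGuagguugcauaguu
let-7f-5p: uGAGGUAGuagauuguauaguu
let-7g-5p: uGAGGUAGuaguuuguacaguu
let-7i-5p: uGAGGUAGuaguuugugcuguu
miR-98-5p: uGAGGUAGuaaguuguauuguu

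All 8 distinct sequences carry the same seed, and 15 of their 22 positions are the same in all of them. Positions are counted from 1 at the 5′ end, and substitutions are given from let-7a-5p. Let-7c-5p differs by A19G and let-7f-5p by G12A. Let-7b-5p has A17G and A19G, let-7d-5p has U1A and U16C, and miR-98-5p has G11A and A19U. Let-7g-5p has G12U and U18C, and let-7i-5p adds A17G and A19U to those changes. Every difference from let-7a-5p thus falls outside the seed.

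The genes fall into classes by how many annotated miRNA hairpins hold the 5p sequence. For Mirlet7b, Mirlet7d, Mirlet7g, Mirlet7i and Mir98 it is found in that gene alone. For the other 5 it is found in 2 genes: let-7a-5p in Mirlet7a-1 and Mirlet7a-2, let-7f-5p in Mirlet7f-1 and Mirlet7f-2, and let-7c-5p in Mirlet7c-2 and Mirlet7c-1. Mirlet7a-1 and Mirlet7c-2 also have the same 3p arm, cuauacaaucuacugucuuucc, so neither gene has a mature arm of its own. The class matters because a read matching more than 1 place in the genome was entered under no gene. Such reads took 69.8% of the first library and 71.8% of the second, which is 23.6 and 26.2 reads for each count in the 10 genes. How many of them were let-7 reads cannot be told from the files.

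The family held 221938 of 1491341 gene counts in replicate 1, or 14.9% (exact 95% Clopper-Pearson interval 14.8 to 14.9), and 269827 of 2028332 in replicate 2, or 13.3% (13.3 to 13.4). As a mean this was 14.1 ± 1.12% (SD, n = 2, as for all values with ± below). The 10 genes held 97.9% and 98.2% of the counts of all 12 let-7 genes. Of the same gene counts, the miR-26 family held 3.77 ± 0.189%, the miR-30 family 3.70 ± 0.266% and the miR-29 family 0.135 ± 0.0461%. Reads that match more than 1 place are in none of these shares, so the shares do not rank the families by mature miRNA. Intervals describe counting error alone, and they may be too narrow even for that, because molecules copied by PCR may be read more than once. A read spans a whole small RNA, so levels are given as CPM, the count divided by the library's gene counts and multiplied by 1000000, without division by length. In whole tissue, fewer cells of a type and less RNA per cell cannot be told apart.

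The genes with a 5p sequence of their own made up nearly all of the counts entered for the family, at 95.9% in replicate 1 and 96.1% in replicate 2. Mirlet7g, in an intron of the protein-coding gene Wdr82 (chromosome 9, 106178840 to 106178927, plus strand), had 92979 and 109465 counts, or 62346 and 53968 CPM. It ranked 4 and 6 among all genes of its library. Mirlet7i, in an exon of the transcribed pseudogene D630033A02Rik (chromosome 10, 122985640 to 122985724, minus strand), had 68006 and 87962 counts, or 45601 and 43367 CPM. These 2 genes together held 72.5% and 73.2% of the family.

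Mirlet7b followed with 29620 and 31481 counts, or 19861 and 15521 CPM. It lies in an exon of the noncoding gene Lncppara on chromosome 15 (85707319 to 85707403, plus strand), 622 bases past Mirlet7c-2. Mirlet7d had 17977 and 25383 counts, or 12054 and 12514 CPM, and is the last gene of a cluster on chromosome 13 (48536012 to 48536114, minus strand), in an exon of 6720427I07Rik. Its mean was 12284 ± 325 CPM, the lowest CV of CPM among the 10 genes. Mir98, in an intron of the ubiquitin ligase gene Huwe1 on chromosome X (151913214 to 151913321, plus strand), had 4204 and 5112 counts, or 2819 and 2520 CPM. Its low place shows that a 5p sequence of its own did not go with a high level in each case.

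The genes with a shared 5p sequence held 4.12% and 3.86% of the family's counts. Mirlet7f-2, 786 bases before Mir98 (chromosome X, 151912346 to 151912428, plus strand), led them with 7043 and 8373 counts, or 4723 and 4128 CPM, above Mir98 in both libraries. Mirlet7c-2 (chromosome 15, 85706603 to 85706697, plus strand) had 1091 and 1023 counts, or 732 and 504 CPM. Mirlet7a-1 (chromosome 13, 48538179 to 48538272, minus strand) had 455 and 403 counts, or 305 and 199 CPM. Although neither of the last 2 genes has a mature arm found in no other gene, both had counts well over the 3 that a count of 0 allows. Counts per gene do not say which part of a hairpin or which end the reads came from.

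Mirlet7f-1 (chromosome 13, 48537829 to 48537917, minus strand) had 379 and 426 counts, or 254 and 210 CPM. Mirlet7a-2 (chromosome 9, 41536716 to 41536811, plus strand), in introns of 3110039I08Rik, was the lowest with 184 and 199 counts, or 123 and 98.1 CPM. Adding the copies of each 5p sequence, the let-7a genes reached 363 ± 93.1 CPM, the let-7c genes, Mirlet7c-1 included, 826 ± 197 CPM and the let-7f genes 4657 ± 452 CPM. All 3 sums stayed under the level of Mirlet7d. Reads that match both copies were entered under neither, so the sums do not give the levels of mature let-7a, let-7c or let-7f.

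**Figure D1:**
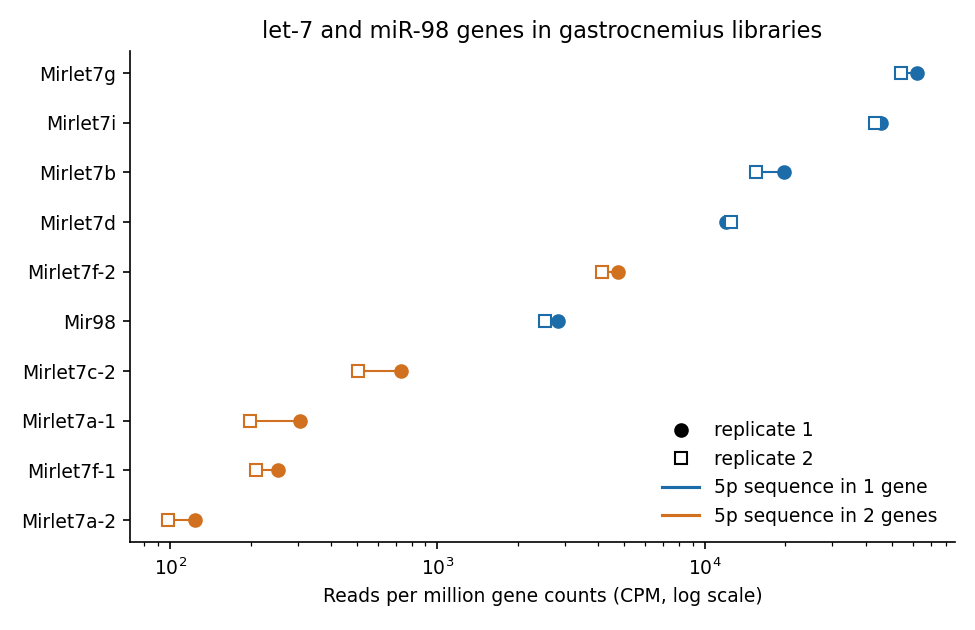
CPM on a log axis for each of the 10 genes, with filled circles for replicate 1 and open squares for replicate 2, coloured by whether the 5p sequence is found in 1 gene or in 2. Mirlet7g leads at 62346 and 53968 CPM, and Mirlet7f-2 is the gene with a shared 5p sequence that lies above Mir98.

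In the order from Mirlet7g down to Mirlet7a-2, the library values of neighbouring genes did not overlap, with the exception of Mirlet7a-1 and Mirlet7f-1. Mirlet7a-1 was 1.20-fold higher than Mirlet7f-1 in replicate 1 and lower in replicate 2, at 0.946 of its count, so these 2 did not differ beyond their spread. By level in both libraries, the gene outside the family closest to Mirlet7g was Mir23b, with 65080 and 65180 CPM. The closest to Mirlet7i was the muscle-specific Mir206 (53367 and 46543 CPM), and the closest to Mirlet7b was Mir30a (18274 and 19293 CPM). Closeness was the distance in log2(CPM + 1) over 2 libraries, at 0.279, 0.249 and 0.336, and says nothing beyond level.

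Grouped by locus, Mirlet7g, Mirlet7i and Mirlet7a-2 each had no other gene of the set beside them and the others lay in pairs or a cluster. The nearest listed miRNA gene to Mirlet7g was Mir135a-1, 24627 bases away on the same strand. The chromosome 15 pair held 13.8% of the family's counts in replicate 1 and 12.05% in replicate 2, and the chromosome 13 cluster 8.48% and 9.71%. The chromosome X pair held 5.07% and 5.00%, and Mirlet7a-2 held 0.0829% and 0.0738%. The order of the loci was the same in both libraries. Mirlet7g and Mirlet7i have a 5p sequence of their own, while each other locus holds a gene with a shared one. Reads matching both copies were entered under neither, so the shares do not give what each locus produced.

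**Figure D2:**
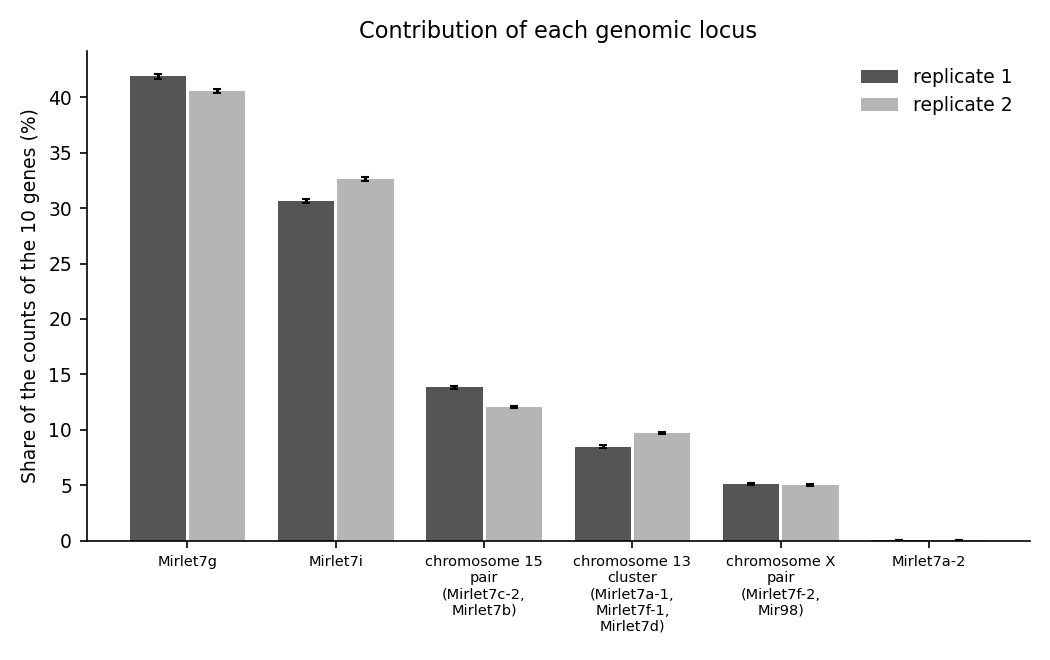
Share of the counts of the 10 genes, in percent, entered under each locus. Dark bars are replicate 1, light bars replicate 2 and error bars exact 95% intervals. Mirlet7g held 41.9% and 40.6% and Mirlet7i 30.6% and 32.6%, while the clusters on chromosomes 15, 13 and X held less. Reads matching more than 1 place are not included.

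Within a locus the genes had unequal counts, although annotated transcripts span them. One transcript of 6720427I07Rik covers the 3 genes on chromosome 13 within 2261 bases. There, Mirlet7d exceeded Mirlet7a-1 by 39.5-fold in replicate 1 and 62.9-fold in replicate 2, and exceeded Mirlet7f-1 by 47.4-fold and 59.5-fold. On chromosome 15, Mirlet7b exceeded Mirlet7c-2 by 27.1-fold and 30.8-fold. In these loci the gene whose 5p sequence is its own was the higher one.

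Huwe1 on chromosome X gave the reverse order, since Mirlet7f-2 was above Mir98 by a log2 ratio of counts of 0.73 ± 0.02. On chromosome 9, Mir100 exceeded Mirlet7a-2 by a log2 ratio of 6.25 ± 0.06 and Mir125b-1 exceeded it by 0.97 ± 0.20. Ratios took counts + 0.5 and were not tested. Unequal processing of a transcript and loss of reads that match more than 1 place cannot be told apart here.

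Copies of the same 5p sequence also had unequal counts, and the bases around the arm show where a longer read would tell them apart. Each line gives the arm and the bases after its 3′ end, with the first base that differs between copies in capitals.
Mirlet7f-2: ugagguaguagauuguauaguuUua
Mirlet7f-1: ugagguaguagauuguauaguuGug
Mirlet7a-1: ugagguaguagguuguauaguuuUag
Mirlet7a-2: ugagguaguagguuguauaguuuAga
Mirlet7c-2: ugagguaguagguuguaugguuuUgg
Mirlet7c-1: ugagguaguagguuguaugguuuAga

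The let-7f hairpins part at base 1 after the arm, and the let-7a and let-7c hairpins at base 2. Before the 5′ end, each pair differs at base 1. Mirlet7f-2 had 18.6-fold the counts of Mirlet7f-1 in replicate 1 and 19.6-fold in replicate 2. Mirlet7a-1 had 2.47-fold and 2.02-fold the counts of Mirlet7a-2, and Mirlet7c-2 had 3.12-fold and 2.77-fold those of Mirlet7c-1. The let-7f copies were thus the most unequal of these 3 pairs in both libraries. Whether their flanking bases bear on this was not tested.

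**Figure D3:**
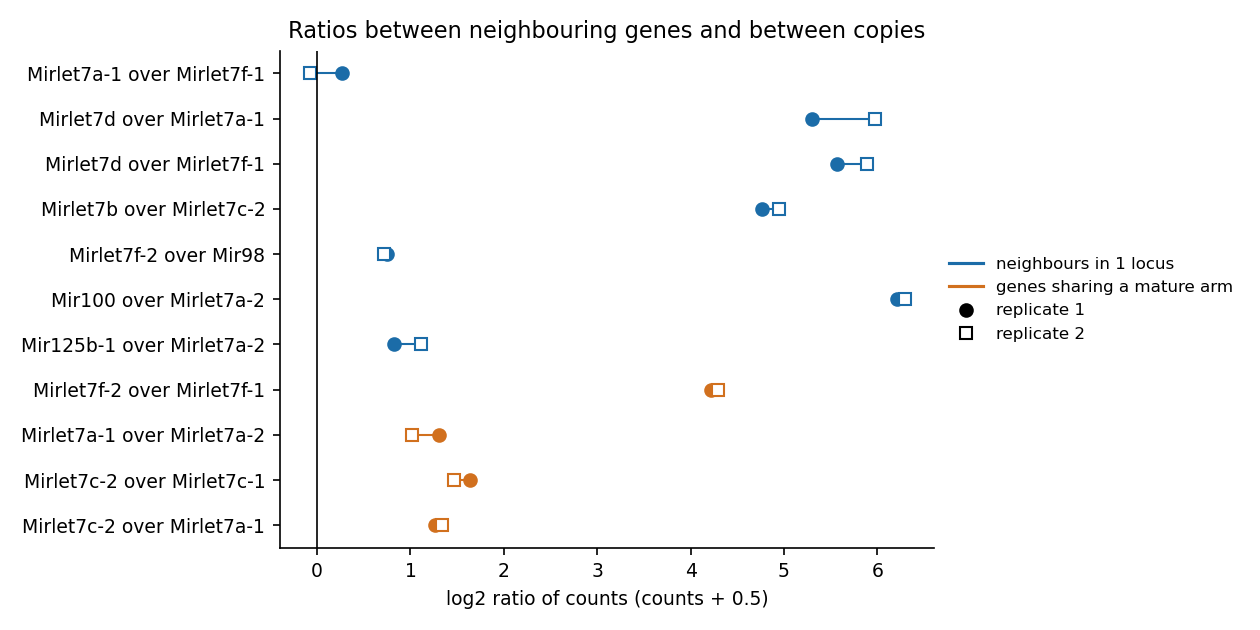
Log2 ratio of counts + 0.5 in each library for neighbouring genes of a locus and for genes that share a mature arm, with filled circles for replicate 1 and open squares for replicate 2. Mir100 over Mirlet7a-2 is the largest of the ratios between neighbours, at a mean of 6.25, and Mirlet7f-2 over Mirlet7f-1 the largest between copies, at 4.25.

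Split by the 5p sequence, the 5 genes with their own sequence had a median of 17691 CPM and a range from 2670 to 58157 CPM. The 5 with a shared sequence had a median of 252 CPM and a range from 111 to 4425 CPM. The ranges overlap because of Mirlet7f-2. Sharing any stretch of 20 bases with another miRNA hairpin gave the same 5 genes in each class.

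The same split was made in the miR-26, miR-29 and miR-30 families, with the 5p arm compared for miR-26 and miR-30 and the 3p arm for miR-29. There, 5 genes with an arm of their own had a median of 8030 CPM, and 6 genes with a shared arm a median of 71.0 CPM. Mir26b had 37560 ± 1844 CPM against 99.5 ± 13.8 for Mir26a-1 and 68.6 ± 27.3 for Mir26a-2. The highest gene with a shared arm in those families was Mir30c-2 at 162 ± 14.8 CPM, under Mirlet7f-2, Mirlet7c-2, Mirlet7a-1 and Mirlet7f-1 in both libraries and above Mirlet7a-2. Mir30b, with 170 and 290 CPM, and Mir30d, with 9229 and 10283 CPM, were not placed in either class. Mir30b lay close to Mir30c-2, at 172 CPM, in replicate 1. Level and sequence class were not tested against each other, and the genes of a family share their libraries.

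**Figure D4:**
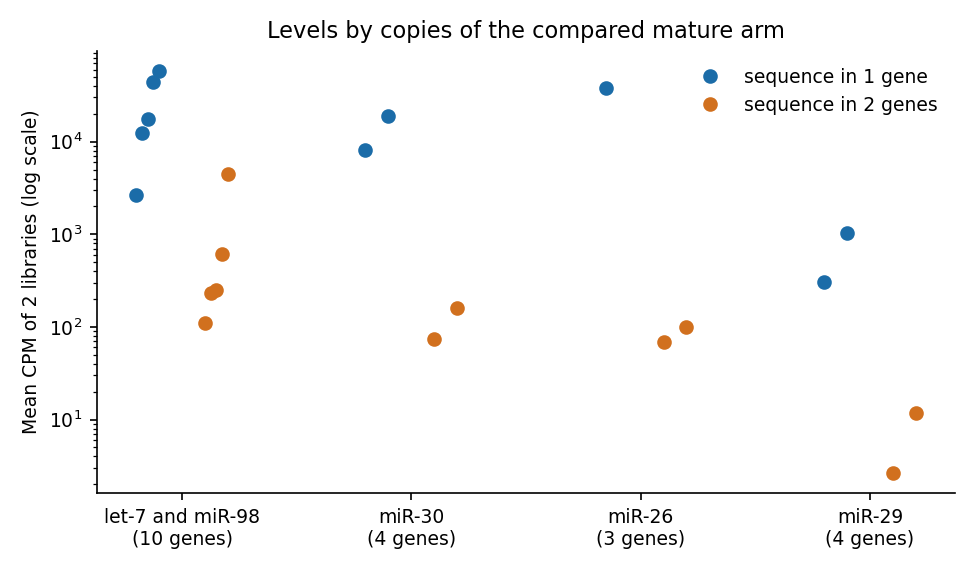
Mean CPM of 2 libraries on a log axis for single genes of 4 families, in blue where the compared mature arm is found in 1 gene and in orange where it is found in 2. In the miR-26, miR-29 and miR-30 families the classes of the genes plotted, without Mir30b and Mir30d, do not overlap within a family, while among the let-7 genes Mirlet7f-2, at 4425 CPM, lies above Mir98, at 2670 CPM.

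The stretch between the arms, the terminal loop of the precursor, is where LIN28 binds. Its zinc knuckles recognise the letters GGAG near the 3′ side of the loop, which are shown in capitals for the most abundant genes with them, beside a gene without them. The search covered the RNA strand only.
Mirlet7g: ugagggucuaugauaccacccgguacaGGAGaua
Mirlet7i: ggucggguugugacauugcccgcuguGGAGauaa
Mirlet7b: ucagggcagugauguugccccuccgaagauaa

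Of the 10 loops, 7 hold GGAG, and those of Mirlet7b and Mirlet7c-2 are among the 3 that do not. Loops were 23 to 36 bases long. Among 50 other mouse hairpins with loops of those lengths and both arms named, 7 hold it, or 14.0%. Mirlet7c-1 and Mirlet7e were left out of these 50, and their loops, each of 23 bases, also hold GGAG. Within the set, genes with the letters had a median of 4425 CPM and a range from 111 to 58157 CPM. The 3 without them had a median of 2670 CPM and a range from 618 to 17691 CPM. The second range lies within the first. LIN28 itself was not measured in these libraries.

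The only difference the design allows is between the libraries. For each gene the split of its counts between the libraries was compared with the split of TMM-scaled library sizes (binomial, exact, two-sided), with Benjamini-Hochberg adjustment over 313 genes. TMM is a scaling of library sizes that trims the most divergent genes. The test covers counting error only and compares these libraries, not conditions. Of the 10 genes, 8 were lower in replicate 2, 1 was higher and 1 did not pass an adjusted p of 0.05. Over all genes tested 18.5% were lower, 19.8% were higher and 38.3% passed in either direction. Deeper genes pass more often, and of the 106 genes with at least 1000 counts summed 39.6% were lower and 32.1% higher, against 6 and 1 of the 7 let-7 genes at that depth. The median log2 ratio of replicate 2 over replicate 1 was -0.23 for the 10 genes and 0.05 for all genes tested.

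Mirlet7a-1 had the lowest ratio at -0.61 (exact 95% interval -0.81 to -0.41, exact binomial test adjusted p = 3.93e-09). Its CPM went from 305 to 199. Mirlet7c-2, which has the same 3p arm, was at -0.53 (-0.65 to -0.40, exact binomial test adjusted p = 4.49e-16), and Mirlet7b, its neighbour, at -0.35 (-0.37 to -0.32). Mirlet7g, the most abundant gene, was at -0.20 (-0.21 to -0.19) and Mirlet7i, the next, at -0.06 (-0.08 to -0.05).

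On chromosome X, Mirlet7f-2 and Mir98 were close, at -0.18 (-0.23 to -0.14) and -0.15 (-0.21 to -0.09). Mirlet7f-1 was at -0.26 (-0.47 to -0.06, exact binomial test adjusted p = 0.0291). Mirlet7a-2 did not pass at -0.32 (-0.62 to -0.02, exact binomial test adjusted p = 0.0718). Mirlet7d was the gene that was higher, at 0.06 (0.04 to 0.09, exact binomial test adjusted p = 1.95e-05). Its interval does not overlap those of Mirlet7a-1 and Mirlet7f-1 in the same cluster. These intervals cover counting error alone.

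**Figure D5:**
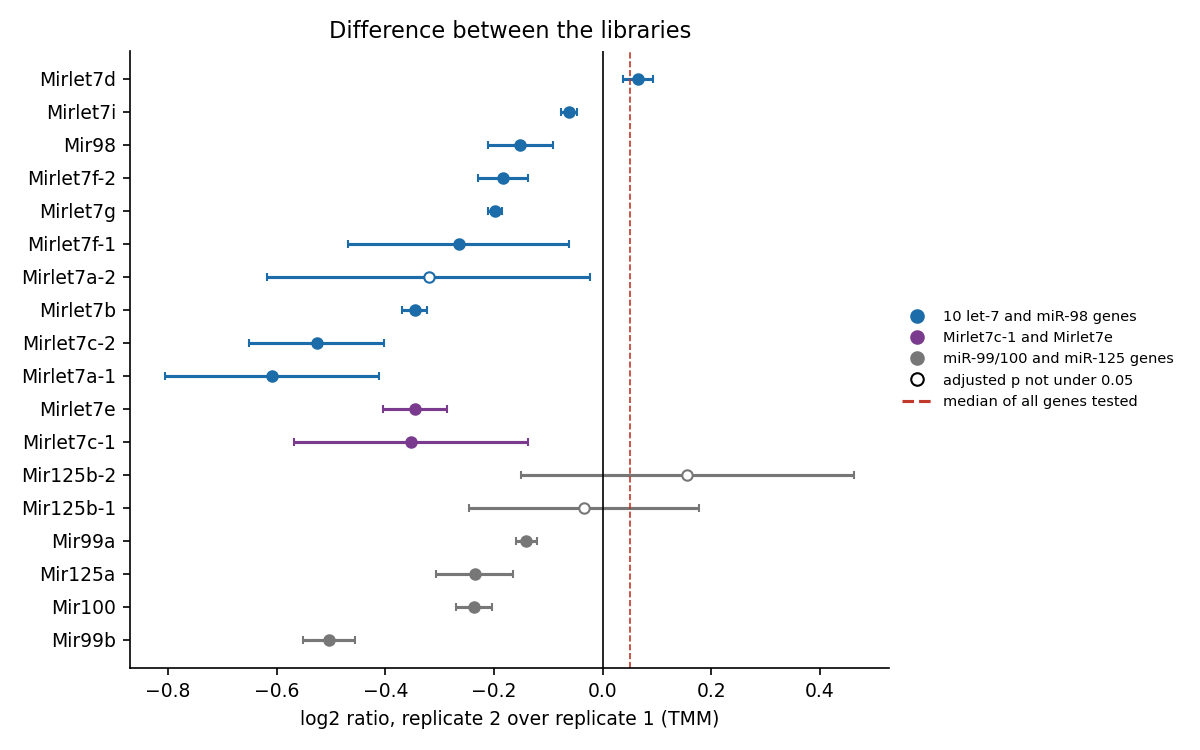
Log2 ratio of replicate 2 over replicate 1 after TMM for the 10 genes, for Mirlet7c-1 and Mirlet7e and for 6 miR-99/100 and miR-125 genes, with exact 95% intervals as bars, open symbols where the adjusted p was not under 0.05 and a dashed line at 0.05, the median of all genes tested. Mirlet7d is the single let-7 gene to the right of 0, and Mirlet7a-1, at -0.61, lies farthest to the left.

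The let-7 genes outside the set were also lower in replicate 2, Mirlet7c-1 at -0.35 (-0.57 to -0.14) and Mirlet7e at -0.35 (-0.40 to -0.29). Mir1961 and Mir7k, which also carry the seed, had 0 counts in both libraries, where a count of 0 leaves room for 2.01 and 1.48 CPM. Of the 6 miR-99/100 and miR-125 genes, 4 were lower and 2 did not pass, with Mir100 at -0.24 and Mir125b-1 at -0.03. The interval of Mirlet7a-2, which lies between Mir100 and Mir125b-1, holds the ratios of both.

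Other settings gave nearly the same calls for the family. With total gene counts in place of TMM 8 genes were lower and 1 higher, where 19.2% of all genes were lower and 19.2% higher. With at least 10 counts in each library 8 were lower and 1 higher, where the shares were 21.3% and 22.5%. With no filter 7 were lower and 1 higher, where the shares were 9.82% and 9.47%. In the deposited counts that ignore strand 7 of 9 were lower and 1 higher, where the shares were 17.4% and 20.9%. None of the 10 genes passed the edgeR exact negative binomial test, which adds the spread between these libraries (adjusted p = 1 for each, smallest unadjusted p = 0.114, 0 of 10 under 0.05). That spread comes from the same libraries, so this does not show that the levels were alike. The CV of the CPM values ran from 2.65% for Mirlet7d to 29.9% for Mirlet7a-1, beside a biological coefficient of variation of 18.0% over 267 genes.

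Marker miRNAs of the tissue were present at very unequal levels, and their summed levels also differed between the libraries. All 10 striated muscle genes had counts in both, with summed levels of 55094 and 48417 CPM, though nearly all came from Mir206. Most Mir1 and Mir133 genes had few counts. For markers too, reads matching more than 1 place in the genome were entered under no gene. Copies of the marker arms were not sought, so few counts of any marker here do not show that its miRNA was scarce. In replicates 1 and 2, Mir1b had 1 and 2 and Mir133a-2 had 1 and 8. Mir1a-1 had 15 and 23, Mir133a-1 18 and 43 and Mir133b 18 and 41. Mir1a-2 was higher, with 660 and 775. Singly, 3 of the 10 striated muscle genes were lower and 2 higher in replicate 2 by the exact binomial test. The higher were Mir499 at 335 and 534 CPM and Mir208b at 91.2 and 224 CPM. Over all genes tested 18.5% were lower and 19.8% higher, which is the background for the calls of every marker set here. The endothelial Mir126a had 78275 and 87525 CPM, and both smooth muscle and pericyte genes together had 58854 and 78690 CPM. Both red cell genes summed to 174 and 355 CPM, 4 leukocyte genes to 2665 and 2294 CPM, and 4 fibroblast genes to 605 and 495 CPM, with counts in both libraries for 3 of them. Of the leukocyte genes, Mir150 and Mir155 were lower and Mir142 and Mir223 higher, and of the fibroblast genes 1 was lower and 1 higher. The liver miRNA Mir122 had 13.4 and 11.3 CPM. Of 6 neuronal genes, all Mir124a genes, Mir9-1 and Mir9-2 were at 0 and Mir9-3 had 1 count in each. By the same limit on reads matching more than 1 place, these values do not show that the neuronal miRNAs were absent. The part of these shifts in the let-7 ratios was not tested.

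Reads on the strand opposite to the let-7 genes were nearly absent. In replicate 1 there were 3 among 221941 reads of both strands, or 0.00135% (exact interval 0.000279 to 0.00395), and in replicate 2 there was 1 among 269828. All 4 lay at Mirlet7b. Mirlet7f-1 overlaps Gm24111, a miRNA gene annotated on the opposite strand that had 0 counts. In the deposited counts that ignore strand, Mirlet7f-1 is listed at 0 in both libraries, although it has 379 and 426 counts on its own strand.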

How the data were processed

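The authors deposited raw read counts per miRNA gene on mm10 with GENCODE M21, per the file headers and the deposited description, as 3 columns without column names. From the values these ignore strand, take the strand of the gene or take the opposite strand. Neither aligner nor counter is named (not given in the sources used here). The strand of the gene was used. The 4 summary rows stayed out of library sizes. They took 80.1% and 79.4% of the reads of replicates 1 and 2.

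CPM was computed on gene counts of 1491341 and 2028332. Each library difference used an exact binomial test (SciPy 1.17.1) with TMM (edgeR 4.0.16, R 4.3.3), over genes with at least 10 counts summed, with a Benjamini-Hochberg threshold of 0.05. A quasi-likelihood test could not be run within 1 group. The binomial step was tested on simulated data that held only counting error and set fold changes. This cannot show how the step fares where libraries also differ by other spread. DESeq2 1.42.0 gave size factors as an alternative. Other alternatives were the filter, strand column, denominator, pseudocount, hairpin length and each library left out. No genome was used, so copies of an arm were sought in RefSeq hairpins.

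All 10 genes are named, with the remaining let-7 genes, genes with the same seed, miR-99/100 and miR-125 genes and, for the 3 highest genes, the gene closest in level. Genes and lists, the comparison families and markers included, were chosen with earlier results of these data known.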

Additional observations from a re-analysis of the deposited data

How the results depend on the processing

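With all reads as the denominator the median level of the 10 genes was 718 reads in 1000000 and their share 2.85%. In the column that ignores strand they were 4747 CPM and 18.8%. Counts there equalled those of the gene strand except for Mirlet7b, with 29623 and 31482, and Mirlet7f-1. The share thus rose without a matching rise in the counts of the 10 genes, because the total of gene counts in that column was lower. Mirlet7e and Mir30e, which have counts on their own strand, are also at 0 in it. Why counts are missing from that column was not tested. Without Mirlet7f-1, at 0 there, 7 of 9 genes were lower in replicate 2. Calls for all 10 genes were the same with DESeq2 size factors, total gene counts and at least 10 counts in each library. With no filter, Mirlet7f-1 lost its call (exact binomial test adjusted p = 0.0526). In the edgeR exact negative binomial test 0 genes of the family were lower and 0 higher. It called 0 of 313 genes, with 15 at an unadjusted p under 0.05. With 1 library left out, the log2 ratio of Mirlet7a-1 over Mirlet7f-1 ranged from -0.080 to 0.26, so its sign rests on the library used. The family share ranged from 13.3% to 14.9%. The threshold of 1000 counts was chosen after seeing the data. No paired analysis was possible because there is 1 group, and no library difference can be had from 1 library. Depth limits the lowest gene, Mirlet7a-2, whose interval is the widest of the 10.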
